A study of Zea mays with 24 samples.

Results

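The maize genes sus2, for a sucrose synthase, and sps1, for a sucrose-phosphate synthase, were followed through drought and re-watering in seedlings of 2 inbred lines. All probe sets that the array annotation assigns to either gene were taken, by symbol or by gene ID. Each gene was found with 1 probe set. The gene table lists sus2 under the gene model GRMZM2G318780 and sps1 under GRMZM5G875238. These are 2 of the 1108 genes, and 2 of the 1452 probe sets, for which the annotation names a single gene. Both probe sets passed the filter on low signals. Maize sucrose synthases have carried several names, and the gene table gives ss2 as a synonym of sus1, so each value below belongs to the gene model behind the symbol.

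Sucrose is the form in which a leaf exports most of its fixed carbon. Sucrose-phosphate synthase builds its phosphorylated precursor from UDP-glucose and fructose 6-phosphate, and a dedicated phosphatase then releases sucrose. Sucrose synthase catalyses a reversible reaction that in growing and storing tissues mostly runs the other way, splitting sucrose with UDP into fructose and UDP-glucose, which feeds cell walls, starch and respiration.

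Transcripts were measured on 24 Affymetrix maize arrays. The plants were seedlings at the 3-leaf stage of the inbred lines Han21 and Ye478, each in 4 treatments: control, moderate drought, severe drought and re-watering after drought. That made 8 groups of 3 arrays. The titles call the arrays of a group biological replicates, while the series text speaks of 2 independent experiments. Nothing says that they came from separate plantings, so p-values measure the spread between these samples, which may be technical. No soil water content or length of treatment was given in the sources used here. The samples are labelled as shoot, although the RNA protocol mentions mesocotyls. All 12 leaf and chloroplast genes used as shoot markers (rca1, pep1 and ssu1 among them) lay above the filter level on all 24 arrays, and 8 of 10 kernel markers lay above it on none. No mesocotyl marker was included, so these genes cannot settle which part of the seedling was sampled. Values are MAS5 signal intensities in array units, scaled by the authors to a common mean, and the number of arrays limits their precision. A probe set was tested if its signal exceeded the array's 40th percentile (between 72.6 and 106.8 units) on 3 or more arrays, as 12111 did. Differences are of log2(signal + 4.56) with standard errors from a single limma model of all 24 arrays, and a call is a Benjamini-Hochberg adjusted p under 0.05. Levels of different probe sets cannot be compared, so the genes are set side by side only by their differences. In RNA from many cells together, fewer cells of a type and less RNA per cell cannot be told apart.

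**Figure D1:**
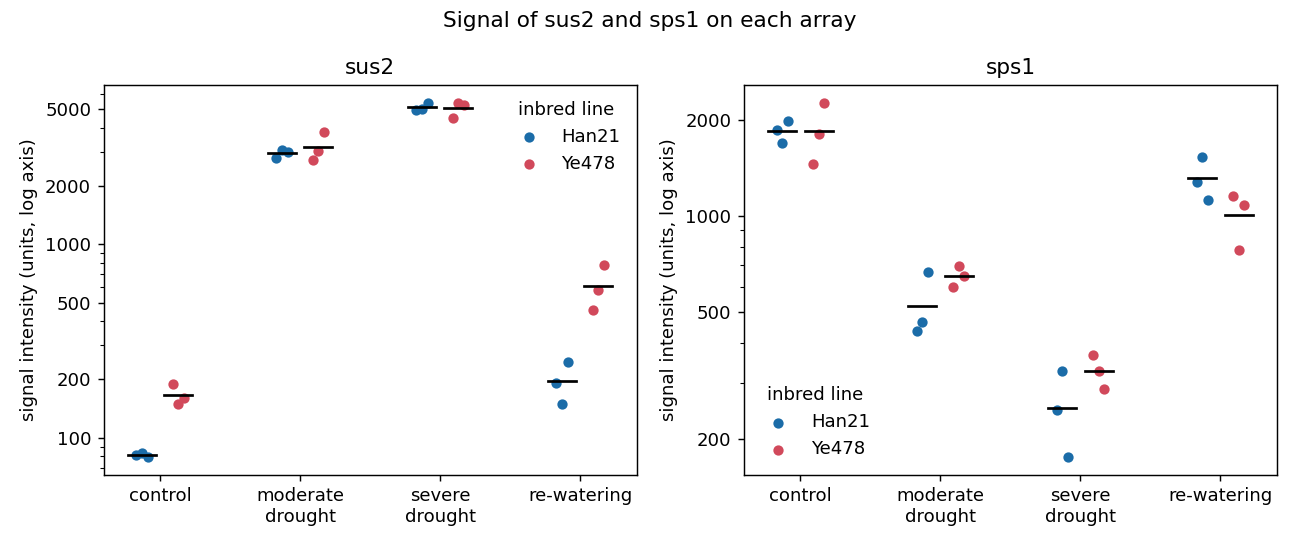
Signal intensity (array units, log axis) of sus2 on the left and sps1 on the right for each of the 24 arrays, by treatment, with Han21 in blue and Ye478 in red; points are single arrays and black bars the means of 3. sus2 climbed from 81.3 to 5136 units between control and severe drought in Han21 while sps1 fell from 1848 to 249.4 units.

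In Han21, sus2 was among the strongest risers of the array. The 3 control arrays gave 81.0, 83.2 and 79.6 units, the moderate-drought arrays 2787, 3066 and 3021 units, and the severe-drought arrays 4980, 5019 and 5410 units. The 3 groups were widely separated, and the control arrays were the only ones of the 24 on which sus2 did not exceed the filter level. The mean signal was 36.4-fold higher than in control under moderate drought, a log2 difference of 5.11 ± 0.17 (SE, n = 3 arrays per group, limma adjusted p = 1.56e-14). Under severe drought it was 63.2-fold higher, a log2 difference of 5.90 ± 0.17 (adjusted p = 7.92e-16). Among the 12111 tested probe sets these rises ranked 10 and 8 from the top. The control signal lay under the filter level, so the rises are sensitive to the added constant. Over the alternatives that kept all replicates they ran from 4.90 to 5.32 and from 5.69 to 6.16.

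Ye478 started from a higher control level and came to similar drought levels. Its control arrays gave 189.7, 149.6 and 161.1 units of sus2, its moderate-drought arrays 2722, 3050 and 3836 units, and its severe-drought arrays 4529, 5398 and 5242 units. As in Han21, no array of a drought group came near the controls, and all severe-drought arrays exceeded all moderate-drought arrays. The rise was 19.2-fold under moderate drought (log2 difference 4.22 ± 0.17, adjusted p = 7.83e-13, rank 28 from the top) and 30.3-fold under severe drought (4.89 ± 0.17, adjusted p = 2.21e-14, rank 43).

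The response of sps1 ran the other way in both lines. In Han21, the sps1 signal was 1862, 1694 and 1989 units in control, 433.9, 464.6 and 667.5 units under moderate drought, and 245.6, 327.2 and 175.4 units under severe drought. The groups followed each other downwards without overlap, although the drought arrays were more scattered than those of sus2. The mean was 3.54-fold lower than in control under moderate drought (log2 difference -1.84 ± 0.21, n = 3 arrays per group, limma adjusted p = 4.33e-07) and 7.41-fold lower under severe drought (-2.91 ± 0.21, adjusted p = 1.92e-10). In Ye478, the sps1 signal was 1452, 1806 and 2265 units in control, 599.8, 697.1 and 646.6 units under moderate drought, and 366.8, 326.7 and 286.5 units under severe drought. These groups did not overlap either, and the widest spread was among the controls. The mean was 2.84-fold lower under moderate drought (-1.48 ± 0.21, adjusted p = 4.94e-06) and 5.63-fold lower under severe drought (-2.46 ± 0.21, adjusted p = 1.54e-09).

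Both genes were thus called in each of the 4 comparisons of drought with control, sus2 as higher and sps1 as lower. In Han21, 41.3% of all tested probe sets were called under moderate drought and 57.5% under severe drought. The shares were 48.6% and 63.6% in Ye478. A call by itself was therefore common, and the ranks given above place the sus2 rises by size. Under moderate and severe drought the sps1 falls ranked 357 and 298 from the bottom in Han21, and 842 and 567 in Ye478. Within each replicate number, severe drought minus control was 5.84 to 6.01 for sus2 in Han21 and 4.54 to 5.13 in Ye478. For sps1 the corresponding differences were -3.47 to -2.36 and -2.96 to -1.97. The drought comparisons of a line share its control arrays.

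Other features of the samples moved with severe drought. The summed signal of the 12 shoot markers was 73616 to 100177 units in the Han21 controls and 47227 to 59082 units under severe drought, and 70643 to 90848 and 43599 to 55163 units in Ye478. The summed signal of the 10 kernel markers went from 128.9 to 131.9 units up to 1057 to 1503 units in Han21 and from 137.8 to 169.9 units up to 1395 to 1879 units in Ye478. Nearly all of that sum came from glb1, a seed globulin gene (mean 1133 and 1572 units under severe drought), while the zein and opaque markers FL2, o2, z1C1_4, z1D_2, gz50, azs2-2, az22z5 and dzs18 were above the filter level on no array. The control pairs of 3' and 5' probe sets did not move together. For 1 actin pair, the 3' signal exceeded the 5' signal by 1.87 ± 0.16 (log2, SD, n = 3) in Han21 controls and by 1.03 ± 0.32 under severe drought, and by 2.03 ± 0.24 and 1.13 ± 0.36 in Ye478. Another actin pair went up from -3.17 ± 1.00 to -1.23 ± 1.07 in Han21, and the Ye478 values were -3.11 ± 3.28 and 0.16 ± 0.97. A cyclophilin pair stood at 0.51 ± 0.02 and 0.86 ± 0.20 in Han21 and at 0.55 ± 0.12 and 0.60 ± 0.18 in Ye478. For an elongation factor the values were 0.66 ± 0.26 and 0.82 ± 0.26 in Han21 and 0.91 ± 0.44 and 1.20 ± 0.16 in Ye478. A glyceraldehyde-phosphate dehydrogenase pair, widely scattered, had 2.01 ± 1.56 and 3.09 ± 1.21 in Han21 and -0.71 ± 2.42 and 2.37 ± 1.71 in Ye478. Their part in the results for sus2 and sps1 was not tested.

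Both genes changed further between moderate and severe drought. For sus2 the step was 0.80 ± 0.17 in Han21 (n = 3 arrays per group, limma adjusted p = 0.00253) and 0.67 ± 0.17 in Ye478 (adjusted p = 0.00722). For sps1 it was -1.07 ± 0.21 in Han21 (adjusted p = 0.000998) and -0.98 ± 0.21 in Ye478 (adjusted p = 0.0017). All 4 steps were called and the groups did not overlap, against 18% of all tested probe sets called in Han21 and 23.9% in Ye478. Some of these calls were lost in fits of fewer arrays. Without replicate 2 of every group the sus2 step was 0.84 (adjusted p = 0.0524) in Han21 and 0.59 (adjusted p = 0.15) in Ye478, and without replicate 3 the sps1 step in Han21 was -0.65 (adjusted p = 0.0603).

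After re-watering sus2 fell steeply, and in both lines it stayed above control. The Han21 re-watered arrays gave 192.4, 149.6 and 245.1 units, and those of Ye478 gave 459, 578.9 and 780.1 units. All 6 values were far below severe drought, and in each line all 3 lay above that line's controls. From severe drought to re-watering the mean dropped 26.2-fold in Han21 (log2 difference -4.71 ± 0.17, n = 3 arrays per group, limma adjusted p = 7.55e-15) and 8.34-fold in Ye478 (-3.08 ± 0.17, adjusted p = 4.23e-12). Against control the re-watered mean was 2.41-fold higher in Han21 (1.19 ± 0.17, adjusted p = 1.63e-05) and 3.63-fold higher in Ye478 (1.81 ± 0.17, adjusted p = 4.69e-08).

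The recovery of sps1 was incomplete in Ye478. Its re-watered arrays gave 1156, 779.5 and 1084 units, all below the 3 controls, and those of Han21 gave 1282, 1528 and 1124 units, which also lay below their controls but closer to them. From severe drought to re-watering sps1 rose 5.26-fold in Han21 (log2 difference 2.41 ± 0.21, n = 3 arrays per group, limma adjusted p = 2.2e-09) and 3.08-fold in Ye478 (1.60 ± 0.21, adjusted p = 9.63e-07). Re-watered minus control was -0.86 ± 0.21 in Ye478 (adjusted p = 0.00346), a call that was lost without replicate 2 of every group (-0.69, adjusted p = 0.0901). In Han21 it was -0.50 ± 0.21 (adjusted p = 0.0675, 95% interval -0.94 to -0.07, not adjusted over probe sets), and the adjusted p was 0.0299 in a fit of only the groups compared and 0.0499 without replicate 2 of the re-watered group.

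Both genes were called from severe drought to re-watering in each line, where 64.8% of all tested probe sets were called in Han21 and 65.6% in Ye478. From control to re-watering, sus2 was called in Han21 and both genes in Ye478, against 35% and 28.3% of all tested probe sets.

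**Figure D2:**
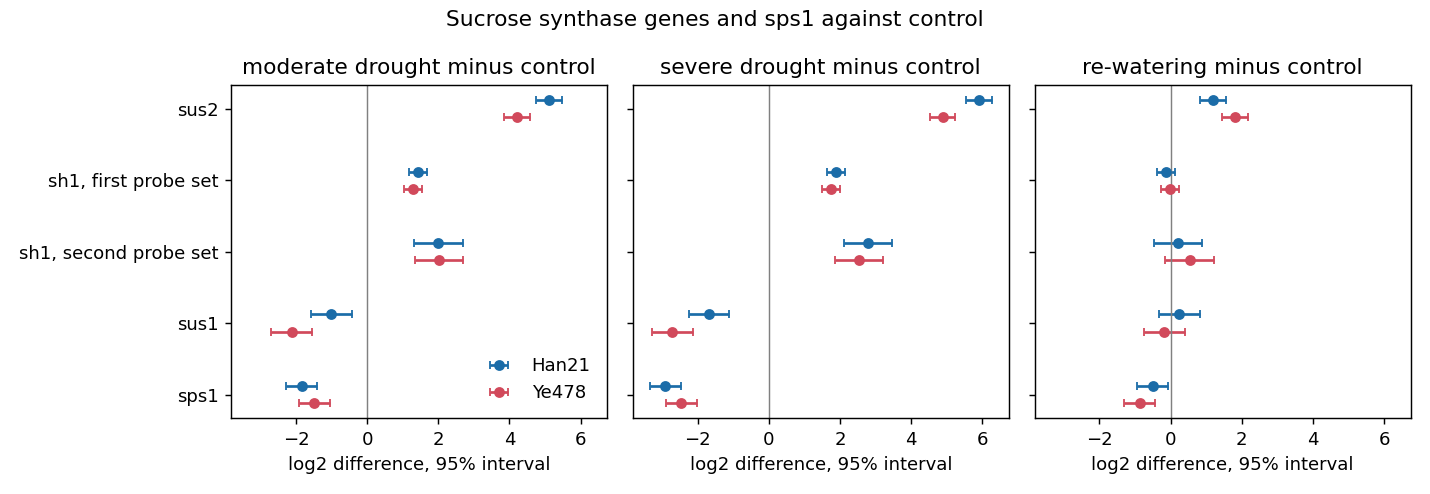
Log2 differences from control (horizontal axis, with 95% intervals) of sus2, 2 probe sets of sh1, sus1 and sps1 in moderate drought, severe drought and re-watering, with Han21 in blue and Ye478 in red. sus2 and both sh1 probe sets lie above 0 in both droughts, sus1 and sps1 below 0, and after re-watering sus2 stays above 0 at 1.19 in Han21 and 1.81 in Ye478.

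The 8 groups were ordered by their mean sus2 signal as Han21 control (81.3 ± 1.85 units, SD, n = 3), Ye478 control (166.8 ± 20.7), Han21 re-watering (195.7 ± 47.8), Ye478 re-watering (606.0 ± 162), Han21 moderate drought (2958 ± 150), Ye478 moderate drought (3203 ± 572), Ye478 severe drought (5056 ± 463) and Han21 severe drought (5136 ± 237). Neighbours overlapped in 3 places, namely Ye478 control with Han21 re-watering, the lines under moderate drought and the lines under severe drought. For sps1 the order rose from Han21 severe drought (249.4 ± 76.0 units) through Ye478 severe drought (326.7 ± 40.2), Han21 moderate drought (522.0 ± 127), Ye478 moderate drought (647.9 ± 48.7), Ye478 re-watering (1007 ± 200) and Han21 re-watering (1311 ± 204) to Ye478 control (1841 ± 408) and Han21 control (1848 ± 148). Here the lines overlapped within each treatment, and Han21 re-watering also overlapped Ye478 control.

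The lines differed in sus2 where water was supplied. In control, Han21 was 2.05-fold lower than Ye478 (log2 difference -0.99 ± 0.17, n = 3 arrays per group, limma adjusted p = 9.56e-05), and after re-watering it was 3.10-fold lower (-1.60 ± 0.17, adjusted p = 1.34e-07). In neither treatment did the lines overlap. Under moderate drought the difference was -0.10 (adjusted p = 0.686, 95% interval -0.46 to 0.26) and under severe drought 0.03 (adjusted p = 0.924, 95% interval -0.33 to 0.38). A difference of the size seen in control lies outside both intervals. For sps1 no line difference was called. Han21 minus Ye478 was 0.03 in the control groups (adjusted p = 0.942), -0.33 under moderate drought (adjusted p = 0.217), -0.42 under severe drought (adjusted p = 0.111) and 0.39 after re-watering (adjusted p = 0.141). Without replicate 2 of Han21 severe drought the severe-drought difference was -0.64 (adjusted p = 0.0221), and without replicate 3 of every group the re-watering difference was 0.56 (adjusted p = 0.0414). Of all tested probe sets, 32.6% were called between the lines in control, and for moderate drought, severe drought and re-watering the shares were 42.7%, 44.4% and 44%.

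The difference between the lines in the response was tested directly, on the same arrays as the level differences above. Each such value is a level difference minus that of another treatment, so it is not separate evidence. For sus2 the lines differed by a call in control and after re-watering, and not in either drought. From control to severe drought sus2 rose more in Han21, by 1.02 ± 0.24 on the log2 scale (n = 3 arrays per group, limma adjusted p = 0.00624), and in all 3 replicate numbers the Han21 rise was the larger (by 0.71 to 1.32). From control to moderate drought the excess was 0.89 ± 0.24 (adjusted p = 0.0251, larger in all 3 replicate numbers). From severe drought to re-watering sus2 fell further in Han21, by a difference of -1.63 ± 0.24 (adjusted p = 7.88e-05, 3 of 3 replicate numbers). Both excesses over control rest on a Han21 control signal under the filter level, and with 4 times the constant they were 0.91 and 0.79. The call for severe drought was lost without replicate 1 of every group (adjusted p = 0.0665) and without replicate 2 (0.0684). The call for moderate drought was lost without replicate 1 (0.207), without replicate 2 (0.22), and without any single one of Han21 control replicate 3 (0.0509), Han21 moderate drought replicate 2 (0.0573), Ye478 control replicate 1 (0.072), Ye478 moderate drought replicate 1 (0.0685) and Ye478 moderate drought replicate 2 (0.0553). The call from severe drought to re-watering was kept under each alternative run.

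From control to re-watering the line difference in sus2 was -0.61 ± 0.24 (n = 3 arrays per group, limma adjusted p = 0.1, 95% interval -1.12 to -0.10, not adjusted over probe sets). It was called with the replicate number as a block (adjusted p = 0.0394), with median centring (0.0464), without Han21 re-watering replicate 3 (0.0349) and without Ye478 re-watering replicate 1 (0.0368). For sps1 none of the 4 differences in response was called. They were -0.36 for moderate drought (adjusted p = 0.592), -0.45 for severe drought (0.336), 0.36 for re-watering against control (0.455) and 0.81 ± 0.30 for re-watering against severe drought (0.0627, 95% interval 0.19 to 1.42). The last was called with the replicate number as a block (adjusted p = 0.0464) and without Han21 severe drought replicate 2 (0.0194). Of all tested probe sets, 8.14%, 16.2%, 13.7% and 17.8% were called in these 4 tests, in the order just given.

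**Figure D3:**
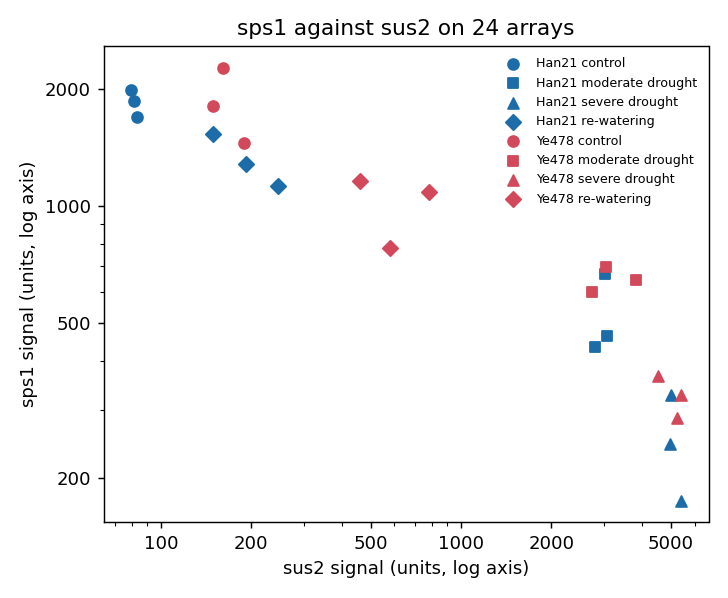
Signal of sps1 (vertical, array units, log axis) against that of sus2 (horizontal, array units, log axis) on each of the 24 arrays, with colour for the line and marker shape for the treatment. The arrays run from control at upper left (sus2 at 79.6 to 189.7 units) through re-watering to severe drought at lower right (sus2 at 4529 to 5410 units).

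Across the 24 arrays sus2 and sps1 were inversely related, with r = -0.933 for log2 signals. This is a description, over arrays that share treatments, array scaling and replicate numbers. The re-watered arrays lay between control and drought on both axes in both lines, as the plot of sps1 against sus2 shows.

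The annotation names 2 other sucrose synthase genes on the array, and they moved in opposite directions. Only the 1452 probe sets with a single named gene were searched, so others may be present without a name. sus1 gave 6470, 6023 and 4892 units in Han21 control and 2549, 1808 and 1240 units under severe drought, and 6355, 5814 and 5273 units and 1289, 913.2 and 582.1 units in the same groups of Ye478. Severe drought lay below control on every array of both lines. The log2 difference was -1.68 ± 0.27 in Han21 (n = 3 arrays per group, limma adjusted p = 2.14e-05) and -2.71 ± 0.27 in Ye478 (adjusted p = 2.26e-08). Under moderate drought it was -1.01 in Han21 (adjusted p = 0.00536, and 0.105 without replicate 2 of every group) and -2.12 in Ye478 (adjusted p = 1.59e-06). After re-watering no difference of sus1 from control was called, at 0.25 in Han21 (adjusted p = 0.515) and -0.18 in Ye478 (adjusted p = 0.684). The line differences of sus1 in response were 1.11 ± 0.39 for moderate drought (adjusted p = 0.0882) and 1.03 ± 0.39 for severe drought (0.0772). Blocking on the replicate number gave adjusted p of 0.00124 and 0.00147. Some fits of fewer arrays also called these differences, with adjusted p of 0.0245 to 0.0498 (moderate drought) and 0.0237 and 0.027 (severe drought). In level, sus1 was called higher in Han21 under moderate drought (1.10 ± 0.27, adjusted p = 0.00243) and severe drought (1.02 ± 0.27, 0.00445). Both calls were lost without replicate 2 of every group (0.117 and 0.0824). No level difference was called in control (0.984) or after re-watering (0.236, and 0.0275 with the block). sus1 was higher on replicate 1 than on replicate 3 in all 8 groups, with mean deviations from the group mean of 0.31 and -0.33 on the log2 scale, whereas the mean deviations of sus2 were -0.08 and 0.14.

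sh1, the Shrunken1 gene whose product channels sucrose into starch in the kernel, rose with drought as sus2 did, by smaller differences. Its brightest probe set, the first in the plot of differences, gave 2900, 2382 and 2359 units in Han21 control and 8148, 10871 and 9527 units under severe drought, and 2794, 2640 and 2773 units against 9869, 8709 and 8821 units in Ye478. The groups were far apart in both lines. The log2 difference was 1.90 ± 0.12 in Han21 (n = 3 arrays per group, limma adjusted p = 3.12e-11) and 1.74 ± 0.12 in Ye478 (adjusted p = 6.97e-11). The second probe set of sh1 had larger differences of 2.78 ± 0.33 (adjusted p = 2.64e-07) and 2.54 ± 0.33 (adjusted p = 7.21e-07). The remaining one was not above the filter level on any array and was not tested. After re-watering neither tested probe set of sh1 differed from control by a call, with adjusted p of 0.42 to 0.903 for the first and 0.241 to 0.674 for the other. Of the sucrose synthase genes that the annotation names, only sus2 thus differed by a call between re-watered and control plants, in both lines. Its excess over sus1 and sh1 was not itself tested.

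The wider sucrose and starch metabolism list, with 31 genes gathered by symbol, had 22 tested genes, each represented by its brightest probe set. With sus2 and sps1 left out, 20 remained. Of these, 7 were higher and 5 lower under moderate drought in Han21, and 5 were higher and 6 lower under severe drought. In Ye478 the counts were 6 higher and 5 lower under moderate drought and 5 higher and 11 lower under severe drought. Over all tested probe sets 19.3% were higher and 22% lower in the first of these 4 comparisons, 28.8% and 28.7% in the second, 23.6% and 25% in the third, and 30.3% and 33.3% in the fourth. The median log2 difference under severe drought was -0.03 in Han21 and -0.61 in Ye478, against 0.03 and -0.02 over all tested probe sets. After re-watering, 4 of the 20 were higher and 4 lower than in control in Han21 (15.7% and 19.2% of all), and 5 higher and 6 lower in Ye478 (12% and 16.3% of all). Without replicate 2 of every group, the genes of the whole list called lower under moderate drought in Han21 went from 6 to 3. Those lower after re-watering in Han21 went from 4 to 2 without replicate 2, without replicate 3 and with median centring.

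**Figure D4:**
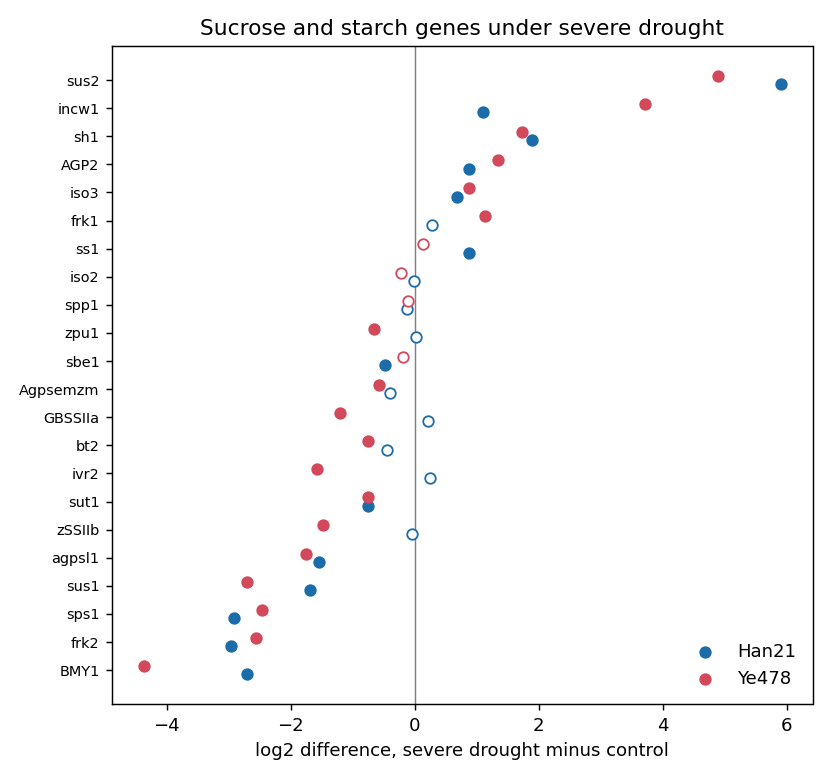
Log2 difference between severe drought and control (horizontal axis) of the 22 tested genes of the sucrose and starch list, Han21 in blue and Ye478 in red; filled circles are called at an adjusted p under 0.05 and open circles are not. sus2 stands highest in both lines (5.90 and 4.89), and sps1 (-2.91 and -2.46) is among the 4 lowest by the mean of the lines.

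Severe drought brought calls in both lines for 11 of the 22 genes, 5 higher in both and 6 lower in both. Without sus2 and sps1 they were 9 of 20, with 4 higher and 5 lower, while of all tested probe sets 46.6% were called in both lines, 21.7% higher in both and 23.4% lower in both. The list's share was thus near that of the whole array. By the mean size of the difference the first 6 were sus2, BMY1, frk2, sps1, incw1 and sus1. BMY1, for a beta-amylase of starch breakdown, went from 1657 ± 151 units (SD, n = 3) to 260.3 ± 84.0 units in Han21, and the Ye478 means were 1118 ± 258 and 54.3 ± 31.6 units. Its log2 differences were -2.70 ± 0.32 (limma adjusted p = 3.19e-07) and -4.36 ± 0.32 (adjusted p = 1.59e-10). The Ye478 mean under severe drought lay under the filter level, so the size of the second difference depends on the added constant. frk2, for a fructokinase, which phosphorylates the fructose that sucrose synthase releases, went from 1077 ± 244 to 133.3 ± 24.4 units in Han21 and from 4233 ± 63.7 to 725.3 ± 134 units in Ye478. Its differences were -2.96 ± 0.21 (adjusted p = 1.15e-10) and -2.55 ± 0.21 (adjusted p = 6.69e-10). incw1, for a cell wall invertase, which splits sucrose outside the cell into glucose and fructose, went from 279.8 ± 28.8 to 607.5 ± 22.1 units in Han21 and from 151.0 ± 35.3 to 2022 ± 318 units in Ye478. Its differences were 1.11 ± 0.21 (adjusted p = 0.000136) and 3.72 ± 0.21 (adjusted p = 3.68e-12).

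spp1, for a sucrose-phosphate phosphatase, the enzyme that acts after sucrose-phosphate synthase, was picked for its place in the pathway after its values were seen. Its mean signal was 1667 ± 73.2 units (SD, n = 3) in Han21 control and 1551 ± 265 under severe drought, and 1331 ± 14.0 and 1236 ± 94.7 units in Ye478. None of its 6 differences between a treatment and control was called, and under severe drought they were -0.12 ± 0.11 (limma adjusted p = 0.382) and -0.11 ± 0.11 (adjusted p = 0.406). Between the lines spp1 was called higher in Han21 in all 4 treatments (log2 differences of 0.31 to 0.52, limma adjusted p from 6e-04 up to 0.0293). Except under moderate drought, these calls were lost with median centring and without replicate 1 or replicate 2 of every group. Single arrays also ended them, namely Han21 control replicates 1 and 2 and any Ye478 control for the control difference, Han21 severe drought replicates 1 and 2 and Ye478 severe drought replicate 3 for severe drought, and Ye478 re-watering replicate 2 for re-watering. SPP2, another gene for this enzyme on the array, did not pass the filter and was not tested.

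Among the 924 tested probe sets with a single gene name, the pattern closest to sus2 over the 24 arrays was that of SRP1A (r = 0.972 for log2 signals). GBF1, for a G-box binding factor, followed at 0.964, then the dehydrin gene dhn2 at 0.961 and 0.955 for its 2 probe sets, the globulin gene glb1 at 0.960 and the metallothionein-like gene mtl2 at 0.949. The most inverse patterns belonged to fae1, for a fatty acid elongase (r = -0.969), and to the response regulator genes crr1 (-0.968) and RR5 (-0.955). Some of these r values rest in part on means under the filter level. In Han21 and Ye478 these were 16.4 and 17.2 units for fae1 and 9.86 and 6.38 for crr1 under severe drought. In control they were 8.11 and 19.4 units for glb1 and 48.7 and 69.7 for mtl2. In all, 50 of the 12110 other tested probe sets (0.413%) had r of at least 0.95 with sus2. By Spearman's rho the count was 3. The rho of the inverse genes was -0.927 for fae1, -0.921 for crr1 and -0.847 for RR5, which ranked 60 by that measure.

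For sps1 the nearest patterns were those of the plastid dicarboxylate transporter genes pOMT1 (r = 0.961) and pDCT2 (0.958) and of the cellulose synthase gene cesa6 (0.945). lem1 followed at 0.938, the alpha-tubulin gene TUA1 at 0.931 and gpa1, for a chloroplast glyceraldehyde-phosphate dehydrogenase, at 0.925. The most inverse were pdc2, for a pyruvate decarboxylase (-0.944), sus2 itself (-0.933) and glb1 (-0.931). Like those of glb1, the control means of pdc2 lay under the filter level, at 38.6 units in Han21 and 20.7 in Ye478. With sps1, 11 other probe sets (0.0908%) reached 0.95, and 8 did by Spearman's rho. These likenesses rest on arrays that share treatments and replicate numbers. Of the 6 probe sets most like sus2, 3 were also among the first 6 by Spearman's rho, and of those most like sps1, 5 were.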

How the data were processed

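The deposited values are signal intensities of 17734 probe sets on 24 arrays, made with GCOS and MAS5 per the submitters' processing notes, without versions. The 2% trimmed mean was 500.1 to 500.2 on each array, and no further normalization was applied. Samples were grouped by their titles. The 113 control probe sets were left out, 5510 others failed the filter, and 12111 were tested as log2(signal + 4.56), where 4.56 is the 10th percentile of all values. A limma model with a mean per group (eBayes with trend, 16 residual and 5.01 prior degrees of freedom) gave 18 contrasts, adjusted by Benjamini-Hochberg within each. Names came from the array annotation and from RefSeq's gene table (Zm-B73-REFERENCE-NAM-5.0), which held 1060 of the 1108 annotated genes, and no coordinates were taken from it. No promoter or protein sequence was used here.

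The members, lists and tests were chosen with earlier results of these data known. Genes are named if they are a sucrose synthase or sucrose-phosphate synthase, if they are among the 6 most like and the 3 most unlike each member, or if they are among the first 6 list genes called under severe drought in both lines. Outside this rule, spp1 was chosen after its values were seen, as were the marker and control genes printed with their levels. The list and the marker genes were put together by symbol. Deviations from the group mean correlated across genes between arrays of 1 replicate number in the 14 pairs of groups compared (42 correlations, r from 0.154 up to 0.692; the lowest over all 28 pairs of groups was 0.0752), so the numbers were taken to pair the arrays, from the data and not from the labels. The first principal component of these deviations set replicate 1 (-26.9 to -22.6) apart from replicates 2 (5.74 to 13.2) and 3 (13.3 to 20.3). Standard errors and p-values leave this pairing out unless the block is named. The replicate block was run as an alternative. R 4.3.3, limma 3.58.1, Python 3.11.15, pandas 2.3.3, numpy 2.4.6 and matplotlib 3.10.9 were used.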

Additional observations from a re-analysis of the deposited data

Results flagged for a closer look

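The tests of line difference in response were gone through for sus2, sps1, BMY1, frk2, incw1 and sus1. Of these, 10 were called, with values as Han21 minus Ye478 on the log2 scale. Other genes named in the text were not part of this count. For sus2 the change from control differed by 0.89 under moderate drought (limma adjusted p = 0.0251) and by 1.02 under severe drought (0.00624), and the change from severe drought to re-watering by -1.63 (7.88e-05).

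Over the 22 tested genes of the sucrose and starch list, sus2 included, the same test called 6 higher and 0 lower for moderate drought against control, 7 and 2 for severe drought, 1 and 2 for re-watering, and 2 and 6 for re-watering against severe drought. Of all tested probe sets, 8.14%, 16.2%, 13.7% and 17.8% were called either way. Over all 12111, the higher and lower calls were 533 and 453, 1055 and 904, 749 and 916, and 911 and 1247. Without sus2 and sps1, the 20 list genes gave 5 and 0, 6 and 2, 1 and 2, and 2 and 5. The counts for the 22 depended on single replicates. Without replicate 2 of every group, the higher calls went from 6 to 1 for moderate drought and from 7 to 2 for severe drought. Without replicate 1, those for severe drought went from 7 to 4. Of the list genes named for their severe-drought differences, incw1, BMY1 and frk2 were among those called in the model of all arrays. For incw1 the change from control differed by -2.61 under severe drought (limma adjusted p = 4.73e-06) and by -1.14 after re-watering (0.0149), and the change from severe drought to re-watering by 1.47 (0.00168). The second of these had an adjusted p of 0.104 without replicate 1 of every group, 0.207 without replicate 2, 0.0529 without Ye478 control replicate 3 and 0.0506 without Ye478 re-watering replicate 2. For BMY1 the change from control differed by 2.87 under moderate drought (0.000292) and by 1.66 under severe drought (0.0146), and the change from severe drought to re-watering by -2.61 (0.000355). Without replicate 2 of every group the value of 1.66 became 1.29 (adjusted p = 0.19), and without Ye478 severe drought replicate 2 it became 1.33 (0.0503). The 1.66 and the -2.61 of BMY1 rest on a mean under the filter level in Ye478 severe drought. For frk2 the change from severe drought to re-watering differed by 0.905 (0.035). That call was lost without replicate 1 or 2 of every group (0.184 and 0.192) and without any single one of Han21 re-watering replicates 2 and 3, Han21 severe drought replicates 1 and 2, Ye478 re-watering replicates 1 and 2 and Ye478 severe drought replicates 1 and 3 (0.0543 to 0.0925).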

How the results depend on the processing

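Each of the 36 results for sus2 and sps1 was recomputed under the alternatives, and 673 of 696 recomputed values kept their side of the threshold. Of these, 664 also kept their sign, and the other 9 belonged to 3 line differences that were not called in the model of all arrays or under the alternative. Some values crossed the threshold with all replicates kept: the line difference of sus2 from control to re-watering with median centring (-0.69) and with the replicate block (-0.61), that of sps1 from severe drought to re-watering with the replicate block (0.81), and sps1 in re-watered minus control Han21 in a fit of only the groups compared (-0.50). The replicate block changed no other call of sus2 or sps1.

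Leaving out replicates or single arrays gave crossings in these results, shown with their range. The line difference of sus2 was 0.73 to 1.03 from control to moderate drought, 0.87 to 1.17 to severe drought and -0.89 to -0.36 to re-watering. Severe minus moderate drought was 0.75 to 0.84 for sus2 in Han21, 0.56 to 0.81 for sus2 in Ye478 and -1.36 to -0.65 for sps1 in Han21. Re-watering minus control was -1.13 to -0.69 for sps1 in Ye478 and -0.68 to -0.34 in Han21. The line difference of sps1 was 0.10 to 0.56 in re-watering, -0.64 to -0.19 in severe drought, and 0.58 to 1.02 in its change from severe drought to re-watering.

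Numbers of called probe sets moved by over 1.5 times with the replicate block in the 4 tests of line difference, from 986 to 1607 for moderate drought, 1959 to 3041 for severe drought, 1665 to 2906 for re-watering against control and 2158 to 3291 for re-watering against severe drought. With a replicate left out the lowest were 264, 601, 295 and 675. Severe against moderate drought fell from 2181 to at lowest 912 (Han21) and from 2891 to 1008 (Ye478). Without replicate 2, moderate drought in Han21 fell from 5002 to 3075, re-watering against control from 4234 to 2195 (Han21) and from 3428 to 1698 (Ye478), and the lines in control and re-watering from 3944 to 2470 and from 5333 to 3526. Fewer arrays enter these fits.

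Median centring moved the median of all tested probe sets by 0.10 under moderate and severe drought in Han21, by 0.13, 0.20 and 0.14 under moderate drought, severe drought and re-watering in Ye478, and by -0.10 between the lines under severe drought. It moved the share of higher among called probe sets from 46.7% to 57.6% under moderate drought and from 45.0% to 55.2% after re-watering in Han21. In Ye478 it moved from 48.6% to 60.3%, 47.6% to 59.5% and 42.5% to 60.9% in moderate drought, severe drought and re-watering and from 42.2% to 55.9% between the droughts. In the line difference for severe drought it moved from 53.9% to 40.2%. Of 468 list counts, 432 stayed within 1.5 times. For the other named genes 2334 of 2436 values, chosen after seeing the data, stayed on the same side. The planned sequence comparison was not run.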
